A study of Mus musculus with 2 samples.

Results

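Genes of tight junctions and of apical polarity were examined in epiblast stem cells of the mouse. These cells (EpiSC) are pluripotent and resemble the epiblast of an embryo that has implanted. The members were a list of 35 genes, drawn up with earlier results of these data known, and 34 of them were found by name on the array, with 48 probes among the 39272 probes that gave a value. The rule used gene names and no signal. Cldn10 was not matched by name: its spot is listed under the older name Cldn10a and was not counted as a member. The 34 genes were set beside all 22756 genes with a RefSeq name. Each of 2 wildtype lines, labelled EpiSC clone 1 and EpiSC clone 2, was measured with 1 array at passage 9. Both lines are female and on the C57BL/6 background, and no treatment other than harvest with trypsin is named for either. Each clone is a single line, and the samples hold no further cell type, so differences between clones have no replicate check and no test. Any medium, substrate or feeder cells are not given in the sources used here.

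Tight junctions seal the space between neighbouring epithelial cells near their apical side. Claudins form the sealing strands, with occludin and its MARVEL relatives and the junctional adhesion molecules (JAM) beside them in the membrane, and scaffolds such as the zonula occludens proteins tie them to actin. The Crumbs and PAR complexes mark the apical domain and place the junction, and Lgl proteins act against them from the basolateral side. The epiblast after implantation is itself a polarised epithelium with an apical surface that faces a cavity.

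The arrays were 1-colour Agilent arrays of the whole mouse genome. A signal is given here as the log2 of the processed intensity minus the 75th percentile of all probes on its array, which was an intensity of 819 for clone 1 and 726 for clone 2. The median of 153 negative control spots was 7.96 and 7.13 on the same intensity scale. A probe is called detected when the scanner software flagged it as well above background. Each gene is read by whichever of its probes was brightest on average. A signal compares 1 probe between clones and does not rank different genes. Differences are clone 2 minus clone 1 on the log2 scale. Probes printed 10 times gave a median spot SD of 0.07 log2 in clone 1 and 0.08 in clone 2, which amounts to 0.11 for a difference. The error given with a single difference is larger, since it is the spot error that the scanner software's own error model assigns. For bright spots it is close to a fixed proportional term set in that model. It does not cover the spread between cultures. Both arrays came from 1 slide and 1 scan.

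Both clones had RNA for each of the 16 members outside the claudin family, which are membrane, scaffold and polarity genes, and for 7 of 18 claudins. In all, 23 of the 34 members (67.6%) were detected on both arrays, against 61.3% of all genes. A single member was seen in clone 1 alone, and 2 were seen in clone 2 alone. The remaining 8 stayed below the detection flag in both clones, against 33.8% of all genes. All 11 members that were missing from 1 or both arrays were claudins.

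Members measured in both clones lay mostly at equal or higher signal in clone 2. Cldn7, Crb3, Ocln, Marveld3, Tjp3 and Cldn6 were at least 2-fold higher there, which is 6 of 23 members (26.1%), against 1.52% of all genes. No member was at least 2-fold higher in clone 1, against 1.03% of all genes, and 2.55% of all genes were that far apart in either direction. With 1.5-fold as the limit, Inadl, Llgl2 and Marveld2 joined them, so that 9 members were higher in clone 2, against 5.76% of all genes, and none in clone 1, against 3.31%. After normexp background correction Inadl (0.73) stayed past 1.5-fold, and Llgl2 (0.57) and Marveld2 (0.54) lay just under it. The median difference was 0.23 log2 over the 23 members and 0.05 over the 13924 genes measured on both arrays. In 20 members clone 2 had the higher signal (56.9% of all genes), and this count was between 15 and 18 under other scalings and background correction, because small differences turned sign. Of all measured genes, 211 passed 2-fold towards clone 2 and 144 towards clone 1. That split was 166 and 173 when each array was scaled over the probes detected on both, and 143 and 61 with normexp background correction. Fewer cells that express a gene and less of its RNA per cell cannot be told apart in these bulk samples.

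**Figure D1:**
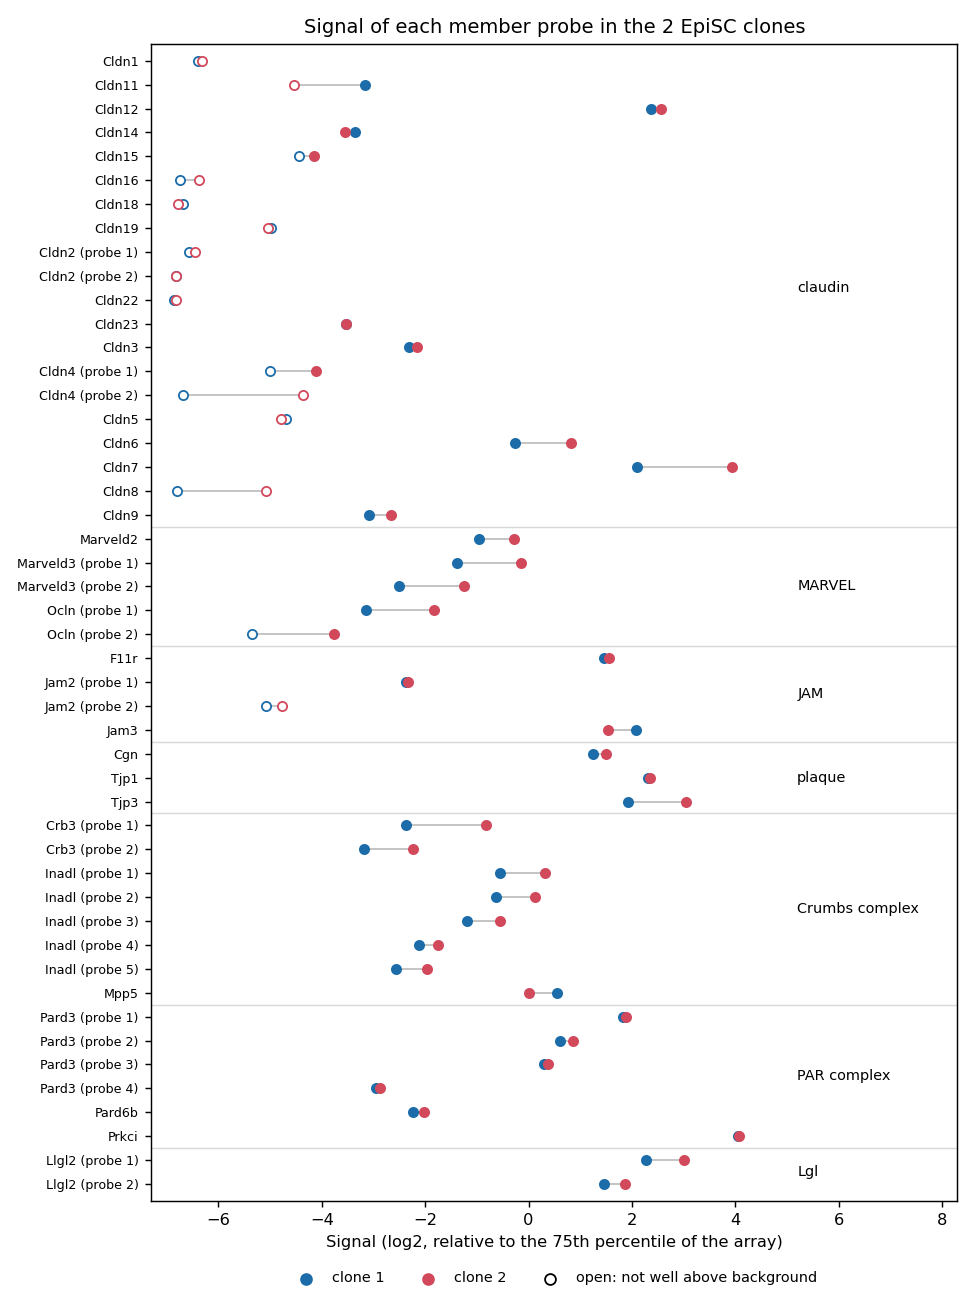
Signal of each of the 48 member probes in clone 1 and clone 2 on the log2 scale, relative to each array's 75th percentile, grouped by role; open circles were not well above background, and a grey line joins the 2 values of a probe. Most open circles belong to claudins, and the longest lines between 2 filled circles are those of Cldn7 and the upper Crb3 probe, with differences of 1.83 and 1.54.

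Of the claudins, Cldn7 differed most among those measured in both clones. Cldn7, a claudin of simple epithelia that binds Epcam, read 2.10 in clone 1 and 3.93 in clone 2, a difference of 1.83 ± 0.20 (spot error), or 3.56-fold. Among the 13924 genes measured it ranked 35 from the top in clone 2. Its probe lies on chromosome 11 from 69781255 to 69781314 in mm9. Cldn6, a claudin of embryonic epithelia and pluripotent cells, had -0.27 in clone 1 and 0.82 in clone 2, a difference of 1.09 ± 0.21. That is 2.12-fold, and its rank was 164.

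The gene next to Cldn6 did not reach that size of difference. The probes of Cldn6 and Cldn9 lie on opposite strands of chromosome 17 with 1081 bases between them, the first from 23819027 to 23819086 and the second from 23820168 to 23820227. Cldn9, a claudin needed in the inner ear, had -3.10 in clone 1 and -2.66 in clone 2, a difference of 0.43 ± 0.25. Another adjacent pair, Cldn4 and Cldn3, both receptors of a clostridial enterotoxin, lies on chromosome 5 with 41088 bases between the probes. Cldn3 had -2.32 and -2.15, a difference of 0.17 ± 0.22, which is within the spot error. Cldn4 was detected in clone 2 only, by 1 of its 2 probes, with -5.00 in clone 1 and -4.12 in clone 2. Against the lowest detected signal of clone 1 it was at least 1.34-fold higher in clone 2. Its second probe stayed below the detection flag on both arrays, so no fold is given for it.

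The other claudins measured on both arrays were level between the clones. Cldn12, a claudin that lacks the usual tail for binding scaffolds, had 2.38 in clone 1 and 2.56 in clone 2. Cldn14, which is needed for hearing, had -3.35 and -3.55, and Cldn23 had -3.53 in both. The differences of these 3 lay between -0.20 and 0.19 and within their spot errors of 0.20 to 0.31. For the dim probes of Cldn14 and Cldn23 the value depended on the processing: with normexp their differences were 0.42 and 0.56.

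Cldn11 was the single member seen in clone 1 only. Cldn11, the claudin of myelin and of the testis barrier, had -3.16 in clone 1 and -4.53 in clone 2, where it was not well above background. It was 2.59-fold higher in clone 1, which is the measured difference and no lower bound. With normexp background correction its difference was 0.09. Of 6 oligodendrocyte markers, 4 were detected on both arrays. The summed signal of all 6 was 1.77 in clone 1 and 2.24 in clone 2 in units of the 75th percentile. Of these sums Mbp gave 1.07 and 1.61. The part of these markers in the result for Cldn11 was not tested. Cldn15, a pore-forming claudin of the gut, had -4.44 in clone 1 and -4.15 in clone 2 and was seen in clone 2 alone. Its difference of 0.29 ± 0.47 was within the spot error, so no fold is read from it.

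Claudins of mature barriers made up most of the members without a detected signal. Cldn1 of the skin, Cldn2, a cation pore of leaky epithelia, Cldn5 of the blood-brain barrier, Cldn8, Cldn16 and Cldn19 of the kidney tubule, Cldn18 of lung and stomach, and Cldn22 did not reach well above background in clone 1 or clone 2. With the software's more permissive flag for a positive and significant signal, 28 members were detected on both arrays, against 79.9% of all genes, and 12 of the 18 claudins. Of 9 endothelial markers 3 were detected on both arrays, and the junction gene Cdh5 was not. Cldn8 had -6.81 in clone 1 and -5.09 in clone 2, both below the lowest signals of detected probes (-4.54 and -4.55), and no fold is read from it.

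RNA of all 3 MARVEL genes was higher in clone 2, by at least 1.5-fold each with the processed signal, and by less for Marveld2 after normexp (0.54 log2). Ocln (occludin), the first membrane protein found in tight junctions, had -3.14 in clone 1 and -1.82 in clone 2, a difference of 1.32 ± 0.24, or 2.49-fold. Its second, dimmer probe was detected in clone 2 only, at -3.77 against -5.34, which makes it at least 1.72-fold higher there. Marveld3 had -1.38 and -0.15, a difference of 1.24 ± 0.21, or 2.36-fold. Its other probe, for the transcript NM_028584 where the brighter one is for NM_212447, gave 1.26. Marveld2 (tricellulin), which sits where the corners of neighbouring cells meet, had -0.96 and -0.28, a difference of 0.69 ± 0.21, or 1.61-fold. Marveld2 and Ocln lie side by side on chromosome 13, with 97677 bases between their probes.

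The junctional adhesion molecules were level between the clones or higher in clone 1. F11r (JAM-A), an adhesion molecule that recruits the PAR complex, had 1.46 in clone 1 and 1.56 in clone 2, and Jam2 had -2.37 and -2.34. These differences of 0.10 and 0.03 were within their spot errors of 0.20 and 0.23. Jam3, which binds Jam2 across cells, had 2.08 in clone 1 and 1.55 in clone 2, a difference of -0.53 ± 0.20, or 1.44-fold higher in clone 1. It is 1 of 2 members whose signal was higher in clone 1 by more than 2 spot errors, against 5.51% of all genes, and 9 members were higher in clone 2 by that much, against 10.1% of all genes.

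Among the plaque proteins under the membrane, 1 of the zonula occludens scaffolds differed and the other did not. Tjp3 (ZO-3), the scaffold restricted to epithelia, had 1.92 in clone 1 and 3.05 in clone 2, a difference of 1.13 ± 0.20, or 2.19-fold. Tjp1 (ZO-1), which is expressed in many cell types, had 2.32 and 2.36, a difference of 0.04 ± 0.20. Cgn (cingulin), a link between the plaque and myosin, had 1.25 in clone 1 and was higher by 0.25 ± 0.20 in clone 2. Tjp3 and Tjp1 were read by 1 probe each.

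The Crumbs complex held differences in both directions. Crb3, the Crumbs protein of epithelia, had -2.37 in clone 1 and -0.83 in clone 2, a difference of 1.54 ± 0.22, or 2.92-fold, and its rank was 61. Its second probe had -3.18 and -2.23, a difference of 0.95 in the same direction. Inadl (also called Patj), a scaffold of the complex, was read by 5 probes, some of them for the same transcript, and clone 2 was higher by all of them. The 5 differences ran from 0.37 to 0.88, and the brightest probe had -0.56 in clone 1 and 0.32 in clone 2. Mpp5 (also called Pals1), which ties Crb3 to Inadl, went the other way with 0.54 in clone 1 and 0.02 in clone 2, a difference of -0.53 ± 0.20.

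The PAR complex was level between the clones. Prkci, the atypical protein kinase C of the complex, had 4.05 in clone 1 and 4.07 in clone 2. Pard6b, its adaptor, had -2.24 and -2.01, and Pard3, its scaffold, had 1.83 and 1.88. The differences of 0.02, 0.23 and 0.06 did not exceed their spot errors of 0.20, 0.23 and 0.20. The 4 Pard3 probes, placed along chromosome 8 for several transcripts, gave differences from 0.06 to 0.25. Llgl2, a polarity protein of the basolateral side and a substrate of atypical protein kinase C, had 2.27 in clone 1 and 3.01 in clone 2, a difference of 0.74 ± 0.20, or 1.67-fold. The second Llgl2 probe, whose 60 bases are spread over 272 bases of the genome, gave 0.40.

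**Figure D2:**
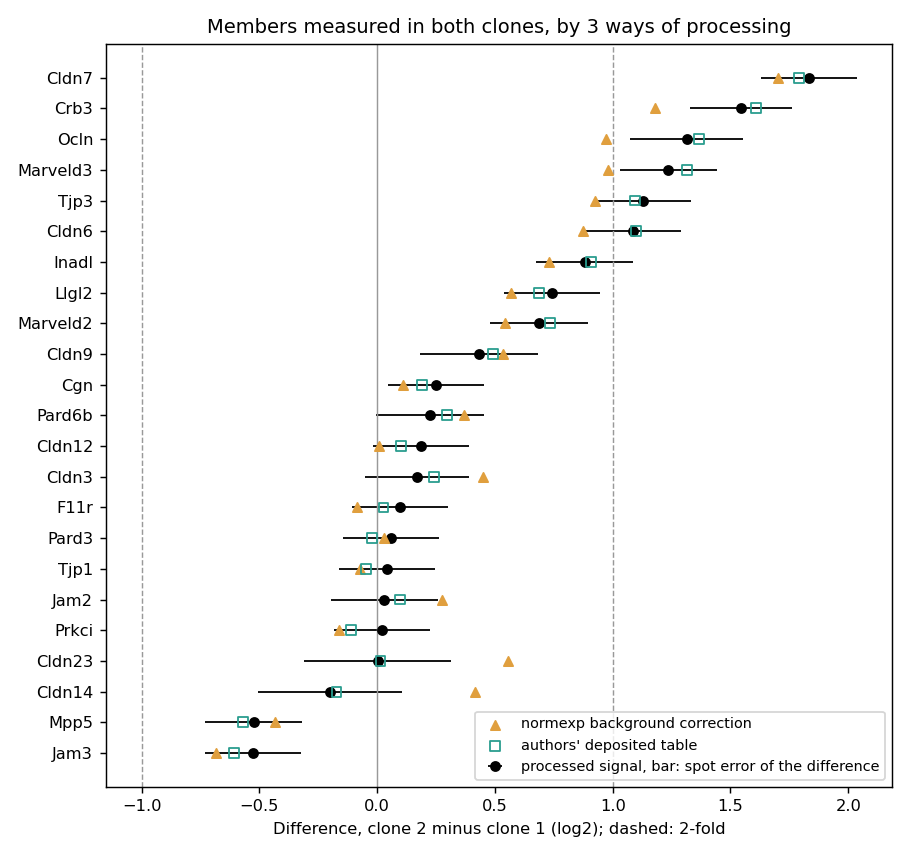
Difference between clones (clone 2 minus clone 1, log2) of the 23 members measured in both, with the spot error of the processed signal as bars, beside the values after normexp background correction and from the authors' deposited table; dashed lines mark 2-fold. By the processed signal 6 members lie past the right line, by normexp 2, and Jam3 and Mpp5 are lowest at -0.53 each.

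Probes of the same gene differed in the same direction but not by the same amount. There were 5 members with 2 or more probes detected on both arrays, and the spread of their differences was 0.60 for Crb3, 0.51 for Inadl, 0.34 for Llgl2, 0.19 for Pard3 and 0.02 for Marveld3. Over 3501 genes with 2 or more such probes the median spread was 0.23, and 2.86% had a spread of at least 1 log2, so 3 of the 5 members lay above that median. Crb3 passed 2-fold by its brighter probe and not by the other, and 1 of the small Pard3 differences turned sign after normexp (-0.07). Counted by probe, 7 of 33 member probes were at least 2-fold higher in clone 2, against 1.59% of all probes, and none was in clone 1, against 1.19%. A neighbouring spot at least 2-fold apart in the same direction lay beside 2 of the 33, a dimmer probe of Inadl and one of Llgl2, and beside none of the 6 genes named above. The longest run of bases that probes of different members share was 13 of 60, between Cldn14 and Cldn9.

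Fewer members passed the 2-fold limit after normexp background correction. With normexp correction 2 of the 6 did, Cldn7 at 1.70 and Crb3 at 1.18, and the others lay just under it, with 0.88 for Cldn6, 0.93 for Tjp3, 0.97 for Ocln and 0.98 for Marveld3. The median of the 23 members was then 0.45, and that of all genes 0.10.

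**Figure D3:**
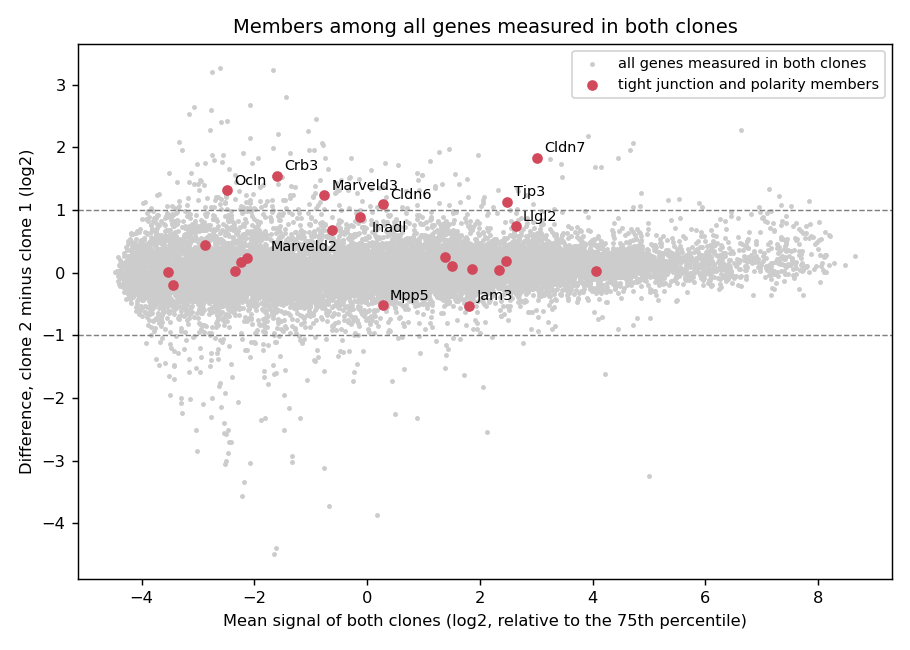
Difference between clones (clone 2 minus clone 1, log2) against the mean signal of both clones (log2, relative to the 75th percentile) for all 13924 genes measured in both (grey) and the 23 members (red); dashed lines mark 2-fold. The 6 members above the upper line range from dim (Ocln) to bright (Cldn7), and no member lies below the lower line.

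The starts of the genes that differed most are shown because these genes differed in the same direction and because E-box elements of the letters CACCTG are bound by the repressors ZEB and SNAI, which act on epithelial genes. RefSeq promoter windows of build GRCm38.p6 were matched for 26 of the 34 members and for 5 of the 6 (not for Marveld3). Each line gives the 250 bases before the most downstream annotated start of a gene, 5′ to 3′ on the gene's strand, with CACCTG on either strand in capitals. Tjp1 and Cldn12 stand last as members with a difference under 0.20.
Cldn7, chr11:69965171-69965420, plus strand: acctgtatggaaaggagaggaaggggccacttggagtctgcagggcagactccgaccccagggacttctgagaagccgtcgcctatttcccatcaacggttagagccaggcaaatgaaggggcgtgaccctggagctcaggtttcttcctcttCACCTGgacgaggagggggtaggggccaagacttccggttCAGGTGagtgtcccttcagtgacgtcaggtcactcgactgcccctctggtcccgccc
Crb3, chr17:57061981-57062230, plus strand: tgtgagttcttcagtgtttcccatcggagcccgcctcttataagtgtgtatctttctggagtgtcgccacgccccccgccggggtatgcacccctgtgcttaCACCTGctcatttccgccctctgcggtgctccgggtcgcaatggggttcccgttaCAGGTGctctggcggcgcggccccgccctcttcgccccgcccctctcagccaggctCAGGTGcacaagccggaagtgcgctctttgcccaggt
Ocln, chr13:100552499-100552748, minus strand: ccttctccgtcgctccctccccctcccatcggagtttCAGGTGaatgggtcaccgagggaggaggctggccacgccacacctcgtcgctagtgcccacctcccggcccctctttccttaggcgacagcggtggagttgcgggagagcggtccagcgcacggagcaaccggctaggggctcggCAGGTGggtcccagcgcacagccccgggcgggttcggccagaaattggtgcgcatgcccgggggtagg
Tjp3, chr10:81291268-81291517, minus strand: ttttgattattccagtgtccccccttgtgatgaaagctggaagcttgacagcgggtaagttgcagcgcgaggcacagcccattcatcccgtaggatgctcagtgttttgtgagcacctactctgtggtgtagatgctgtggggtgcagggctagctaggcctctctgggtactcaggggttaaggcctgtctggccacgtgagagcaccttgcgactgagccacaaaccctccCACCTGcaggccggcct
Cldn6, chr17:23679115-23679364, plus strand: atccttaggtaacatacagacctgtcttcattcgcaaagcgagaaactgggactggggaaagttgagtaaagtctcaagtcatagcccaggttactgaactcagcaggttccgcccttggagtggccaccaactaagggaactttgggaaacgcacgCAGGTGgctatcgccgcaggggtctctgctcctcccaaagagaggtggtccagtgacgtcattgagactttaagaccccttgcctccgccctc
Tjp1, chr7:65371245-65371494, minus strand: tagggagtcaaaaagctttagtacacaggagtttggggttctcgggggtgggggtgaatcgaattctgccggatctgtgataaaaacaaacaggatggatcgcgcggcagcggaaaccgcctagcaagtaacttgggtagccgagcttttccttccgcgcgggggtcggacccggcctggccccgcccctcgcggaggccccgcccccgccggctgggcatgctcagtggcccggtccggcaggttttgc
Cldn12, chr5:5514790-5515039, minus strand: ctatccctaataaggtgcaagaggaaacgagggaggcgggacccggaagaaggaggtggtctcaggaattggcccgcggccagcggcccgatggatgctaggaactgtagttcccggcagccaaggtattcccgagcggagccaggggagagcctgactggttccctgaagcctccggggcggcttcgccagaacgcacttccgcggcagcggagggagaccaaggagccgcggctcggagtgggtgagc
The first 5 windows hold 9 matches in all, and those of Tjp1 and Cldn12 hold none. The same window of Pard3 (difference 0.06) holds 3 and that of F11r (0.10) holds 1, so Tjp1 and Cldn12 do not stand for all level members. Windows of members had a median of 58.0% GC and 9 CpG, against 52.4% and 6 over all windows. Over every annotated window, 5 of these 5 genes had a match, in 7 of their 9 windows, against 19.4% of 27025 genes and 17.2% of 32851 windows of this length. The 2 Crb3 windows overlap and hold the same 3 matches, so the windows are not independent. These 5 genes also had more windows per gene than all genes, which gives each more room for a match. A match was found for 5 of the 11 other detected members with a window as well, among them F11r, Pard3 and Pard6b, whose differences were 0.25 or less. Cldn7 had a match in 1 of its 2 windows, and so had Ocln, in each case the one printed. The Grainyhead-like element AACNGGTT, searched on both strands, was in none of the 5 genes, in Cgn and Cldn5 of the 26, and in 2.00% of all genes. The GC box GGGCGG was in 4 of the 5 and in 35.4% of all genes, and TATAA in 1 of the 5 (Crb3) and in 25.8%. A match describes letters in these windows and not a bound site.

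Further genes of junctions and polarity were counted in the same way. Of 46 such genes outside the members (claudins, adhesion proteins, scaffolds and polarity kinases), 29 were detected on both arrays and 12 on neither, among them Crb1, Pard3b, Llgl1, Lin7a and Dlg2. None of the 29 was 2-fold apart, which is near the 2.55% of all genes, and 14 had the higher signal in clone 2, against 56.9% of all genes. Their median difference was -0.01. Ildr1, a protein of the corners where cells meet, was seen in clone 2 alone, with -3.32 there against -5.41 in clone 1. It was at least 2.34-fold higher, at a spot with a 2-fold neighbour in the same direction.

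Regulators and other products of epithelial cells were higher in clone 2. Of 19 genes in that list, 14 were detected on both arrays, against 61.3% of all genes. All 14 had the higher signal in clone 2, against 56.9% of all genes, with a median difference of 0.94. The smallest differences were 0.13 for Epcam, 0.17 for Ehf and 0.19 for Ovol2. After normexp these were 0.02, 0.59 and 0.06. The list was chosen with such results known and is no independent evidence. Ap1m2, a sorting adaptor of epithelia, had -3.92 in clone 1 and -1.65 in clone 2. The difference of 2.27 became 1.44 after normexp. Rab25, a GTPase of apical recycling, differed by 1.96, and St14 (matriptase), an epithelial membrane protease, by 1.41. The splicing regulators Esrp2 and Esrp1 differed by 1.79 and 1.11, and the transcription factor Grhl2 by 1.37. These 6 were at least 2-fold higher by the processed signal and with normexp, against 1.52% and 1.03% of all genes. Esrp1 lay at the limit with normexp (1.00), and its second, dimmer probe differed by 0.73.

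Of 9 repressors and factors of mesenchymal cells, all were detected on both arrays, with a median difference of -0.10. Twist1 was the 1 at least 2-fold apart, with -2.28 in clone 1 and -3.80 in clone 2. The difference of -1.53 shrank to -0.34 after normexp. The ZEB and SNAI genes of the list, given because their products can bind CACCTG elements, differed in both directions. Zeb1 had 0.84 in clone 1 and -0.08 in clone 2, which is 1.89-fold higher in clone 1, and the difference of -0.92 was -0.86 after normexp. Snai3 differed by 0.72 and Snai1 by 0.33 towards clone 2. Zeb2 and Snai2 were level, with differences of -0.10 each. The part of these repressors in the differences of the members was not tested.

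**Figure D4:**
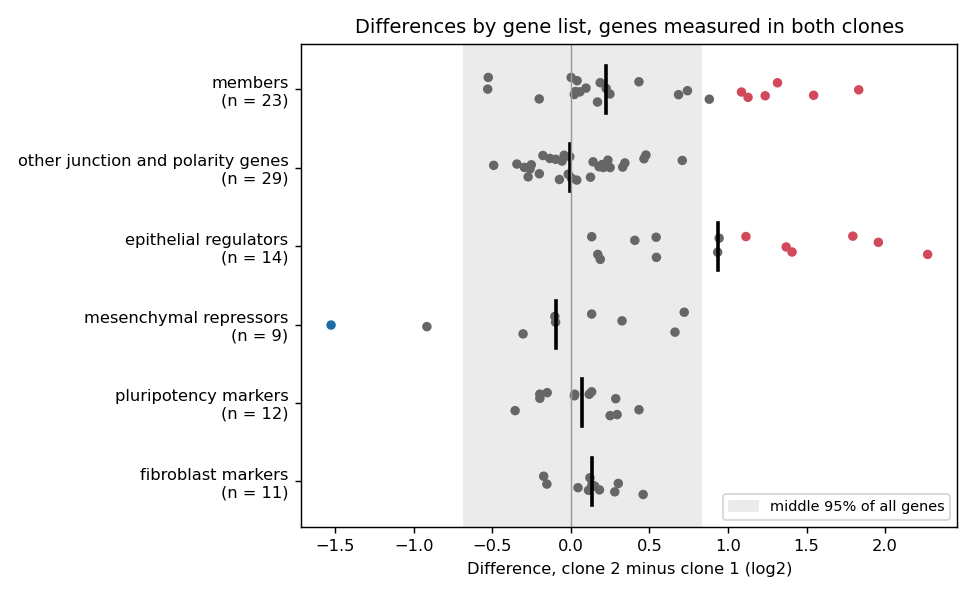
Difference between clones (clone 2 minus clone 1, log2) of single genes measured in both, by list, with the median of each list as a black bar and the middle 95% of all genes in grey (-0.68 to 0.83). Red points are at least 2-fold higher in clone 2 (6 members and 6 epithelial regulators), and the blue point, Twist1, is at least 2-fold higher in clone 1.

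Markers of the labelled cells and of other cell types are given beside these differences. All 12 pluripotency markers, among them Pou5f1, Nanog and Otx2, were detected in both clones, with differences from -0.35 to 0.43. All 11 measured fibroblast markers were detected in both as well (Col1a1 gave no value), with a summed signal of 176 in clone 1 and 195 in clone 2 and a median difference of 0.13. Of 8 trophoblast markers 5 were detected on both arrays, without Cdx2, Elf5 and Hand1, and the sums over all 8 were 1.15 and 1.63. Of 8 visceral endoderm markers 1 was (Amn), without Afp, Ttr and Hnf4a, and Gata6 was seen in clone 2 alone. Over all 8 probes, those below detection included, the sums were 0.20 and 0.28, of which Amn gave 0.0734 and 0.113. Of 7 surface ectoderm markers 2 were, Sfn and Trp63, and the sums over all 7 were 2.19 and 3.63. Krt5 passed detection on the array of clone 2 alone and was at least 2.13-fold higher there. Krt14, its partner keratin, went the other way: it passed in clone 1 alone, with -4.07 against -4.48, and was 1.33-fold higher there. After normexp its difference was 0.48 towards clone 2. The 9 endothelial markers summed to 2.33 and 3.94, of which the single gene Kdr gave 2.09 and 3.59. The part of these cell types in the differences of the members was not tested.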

How the data were processed

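RNA of 2 EpiSC lines was measured with 1 array each, from 0.2 ug of RNA labelled with Cy3, per the labels' protocols. Per the file headers, spots were read with Agilent Feature Extraction 11.0.1.1, and the deposited processed signal is an intensity after spatial and multiplicative detrending within the array, with background correction switched off. The authors' deposited table of normalized values, also a linear intensity, served as an alternative; the sources used here do not name its method, and its column medians were 65.8 and 65.8. Probe positions are on mm9, per the file headers.

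Of 43020 spots that are not controls, 277 and 246 with outlier flags were left out. The log2 values of repeated spots were averaged, and the array's 75th percentile was then subtracted. Detection took at least 50% of a probe's spots. A fold for a gene detected on 1 array is a bound against the higher of the dim value and the lowest detected signal. Where the dim value was the higher, as for Cldn11, Cldn15 and Krt14, this is the measured difference and no lower bound. Genes were named through RefSeq accessions and symbols of GRCm38.p6. Normexp (offset 50) and quantile normalization used limma 3.58.1 in R 4.3.3. Normexp started from the mean spot signal and its local background, and quantile normalization from the processed signal. The normexp values thus differ from the processed signal in more than the background correction. The counting code was run on simulated data with differences set well past the 2-fold limit and with spot noise alone. That checks the code and not the differences reported here. The number of arrays limits the precision, so no p-value was computed. The text accounts for every member and gives the values of those 2-fold apart, with a 2-fold bound, or among the 6 with the brightest probes, a choice of what to print and not an order of levels. The members, lists and alternatives were chosen with earlier results of these data known.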

Additional observations from a re-analysis of the deposited data

How the results depend on the processing

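The 6 members at least 2-fold higher in clone 2 remained the same 6 with quantile normalization, with the percentile taken over probes detected on both arrays, with the authors' deposited table, when a gene's probes were averaged, with the positive and significant flag and without spots beside a changed spot. Normexp background correction left 2 of them (Cldn7 and Crb3), and the restriction to bright probes left 3 (Cldn6, Cldn7 and Tjp3), since it kept 13 measured members. No detection filter gave 7, with Cldn8 added. The count at least 2-fold higher in clone 1, which was 0, was 1 (Cldn11) with the positive and significant flag and 1 with no detection filter. The median difference of 0.23 was 0.45 with normexp correction and moved by less than the spot noise of 0.11 otherwise. With normexp, the 8 claudins below detection in both clones also read higher in clone 2, by 0.62 (Cldn19) to 1.19 (Cldn8). By the processed signal their differences ran from -0.10 (Cldn18) to 1.72 (Cldn8). A shift of dim probes with normexp is therefore not particular to detected members. The cause of the change with normexp was not tested. No member past 2-fold changed sign. Members detected on both arrays numbered 21 when every probe had to be detected. No paired analysis was possible because each clone has 1 array. For the same reason no array could be left out in turn. Signal over background limits the claudins that were not detected: a level below the lowest detected signals (-4.54 and -4.55) was not measurable.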
